A study of Homo sapiens with 7 samples.

Results

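The 4 HOX clusters and the 250 kb on either side of each were examined for 5-hydroxymethylcytosine (5-hmC) in SK-N-BE(2) cells. A peak, that is an interval enriched after capture of 5-hmC, was taken as a member when its midpoint lay in 1 of 4 windows of the human build hg19. The HOXA window was chr7:26880000-27500000 (cluster 27130000-27250000), the HOXB window chr17:46350000-47060000 (cluster 46600000-46810000), the HOXC window chr12:54080000-54700000 (cluster 54330000-54450000) and the HOXD window chr2:176700000-177310000 (cluster 176950000-177060000). Of 1873636 peaks in 6 lists, 1359 were members, of which 490 lay in a cluster and 869 in a flank. Values given below in runs of 6 follow the lists in the order 0, 6, 12, 24, 48 and 72 h, and by list the members numbered 216, 218, 206, 232, 239 and 248. The windows are set by position and not by a value of the peaks in them.

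SK-N-BE(2) is an established human neuroblastoma cell line, labelled wild type here, grown in RPMI medium with 10% serum. The study followed 5-hmC in these cells at 21% oxygen (normoxia, 0 h) and after 6, 12, 24, 48 and 72 h at 1% oxygen (hypoxia). Each time is represented by 1 captured library and 1 peak list, so no value at a time has a replicate error, and low oxygen cannot be told apart from time in culture because normoxia was taken at 0 h only. The lists give positions without heights or read counts, so the depth is unknown, and intervals on shares cover counting error only.

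HOX genes encode homeodomain transcription factors that give cells of the embryo their position along the body axis, and each cluster holds its genes in the order in which they act along that axis. In cells where a cluster is silent it is usually held by Polycomb proteins, and its many CpG islands are mostly free of methylation. 5-hmC is made from 5-methylcytosine by the TET dioxygenases, which need oxygen, and it lies mostly at CG dinucleotides of active genes and enhancers. A captured fragment therefore reports both that a site was methylated and that TET enzymes acted on it.

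All 39 HOX genes were found in the RefSeq gene table, which is built on GRCh38.p14. Because the peaks are on hg19, no gene was placed on a peak, and only the order of the genes was used. From the lower to the higher coordinate the table ends HOXA with HOXA13 (11 genes) and lists HOXB1 to HOXB13 (10 genes), HOXC13 to HOXC4 (9 genes) and HOXD13 to HOXD1 (9 genes). SKAP2, a signalling adaptor gene, precedes HOXA, and EVX1, a homeobox gene, follows it. SKAP1 precedes and TTLL6 follows HOXB. CALCOCO1 precedes HOXC, while SMUG1, which encodes a DNA glycosylase, and CBX5, which encodes the heterochromatin protein HP1 alpha, follow it. LNPK and the homeobox gene EVX2 precede HOXD, and MTX2 follows it.

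The clusters also hold microRNA genes, shown here because near-identical ones lie in clusters with and without peaks. The mature RefSeq sequences are given 5′ to 3′ with the seed, bases 2 to 8, in capitals.
hsa-miR-196b-5p (MIR196B, HOXA): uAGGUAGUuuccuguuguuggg
hsa-miR-196a-5p (MIR196A1, HOXB; MIR196A2, HOXC): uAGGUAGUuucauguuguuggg
hsa-miR-10a-5p (MIR10A, HOXB): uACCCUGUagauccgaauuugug
The miR-196 members are known to repress HOX messengers. Genes in HOXB and HOXC give the same mature miR-196a-5p, and the HOXA form shares its seed and differs by A12C, counted from 1 at the 5′ end of miR-196a-5p. HOXB had no peak in any list and HOXC the most of the 4 clusters.

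The share of CG dinucleotides, the sites at which 5-hmC mostly forms, was compared for the promoters held in the RefSeq table, from 250 bases before to 50 after the start. HOXA promoters (9 of 11 genes, 81.8%) had a median of 23 CG in 300 bases, with a range of 11 to 44. HOXD promoters (8 of 9 genes, 88.9%) had a median of 24.5, with a range of 4 to 36, and the 27305 genes of the table had a median of 14. For HOXB (10% of genes) and HOXC (22.2%) too few promoters were matched, and the check is void there. The 250 bases before the start of the paralogous genes HOXA13 (minus strand of chromosome 7) and HOXD13 (plus strand of chromosome 2) are shown from GRCh38.p14, with each CG in capitals, because these genes stand in a peak-poor and a peak-rich cluster, HOXD13 at the end of HOXD with the fewest peaks.
HOXA13: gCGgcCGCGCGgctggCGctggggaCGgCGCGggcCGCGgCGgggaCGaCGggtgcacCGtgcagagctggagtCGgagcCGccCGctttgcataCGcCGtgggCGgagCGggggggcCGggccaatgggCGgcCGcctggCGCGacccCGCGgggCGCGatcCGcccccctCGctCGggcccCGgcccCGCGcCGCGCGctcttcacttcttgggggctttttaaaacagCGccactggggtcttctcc
HOXD13: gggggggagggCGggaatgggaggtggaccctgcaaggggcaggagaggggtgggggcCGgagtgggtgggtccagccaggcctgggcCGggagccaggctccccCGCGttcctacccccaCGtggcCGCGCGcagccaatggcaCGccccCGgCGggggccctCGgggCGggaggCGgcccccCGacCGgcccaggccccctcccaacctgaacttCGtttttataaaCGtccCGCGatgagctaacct
The HOXA13 stretch holds 40 CG and the HOXD13 stretch 21. This pair does not stand for the clusters, since HOXA13 had the most CG of the matched HOX promoters. In 300 bases HOXA4 (27) also exceeded HOXD4 (4). HOXA11 (13) was below HOXD11 (27) and HOXA3 (13.9) below HOXD3 (25), while HOXA10 and HOXD10 both had 23. Whether a peak overlaps either stretch was not tested, since the builds differ.

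HOXA and HOXB were nearly without 5-hmC peaks, whereas HOXC and HOXD were filled with them, in normoxia as in hypoxia. In the HOXB cluster (210 kb) no peak lay in any of the 6 lists. The HOXA cluster (120 kb) held no peak at 0, 6, 12, 24 or 72 h and 1 peak at 48 h, chr7:27233062-27233313, which is 252 bp wide. A count of 0 allows up to 3 peaks per list when counting error alone is considered. In the HOXC cluster (120 kb) the lists held 52, 55, 48, 53, 50 and 51 peaks from 0 to 72 h. The HOXD cluster (110 kb) held 29 peaks at each of 0, 6, 12 and 24 h, 30 at 48 h and 34 at 72 h. Each HOXC and HOXD list was thus above every HOXA and HOXB list, without overlap.

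**Figure D1:**
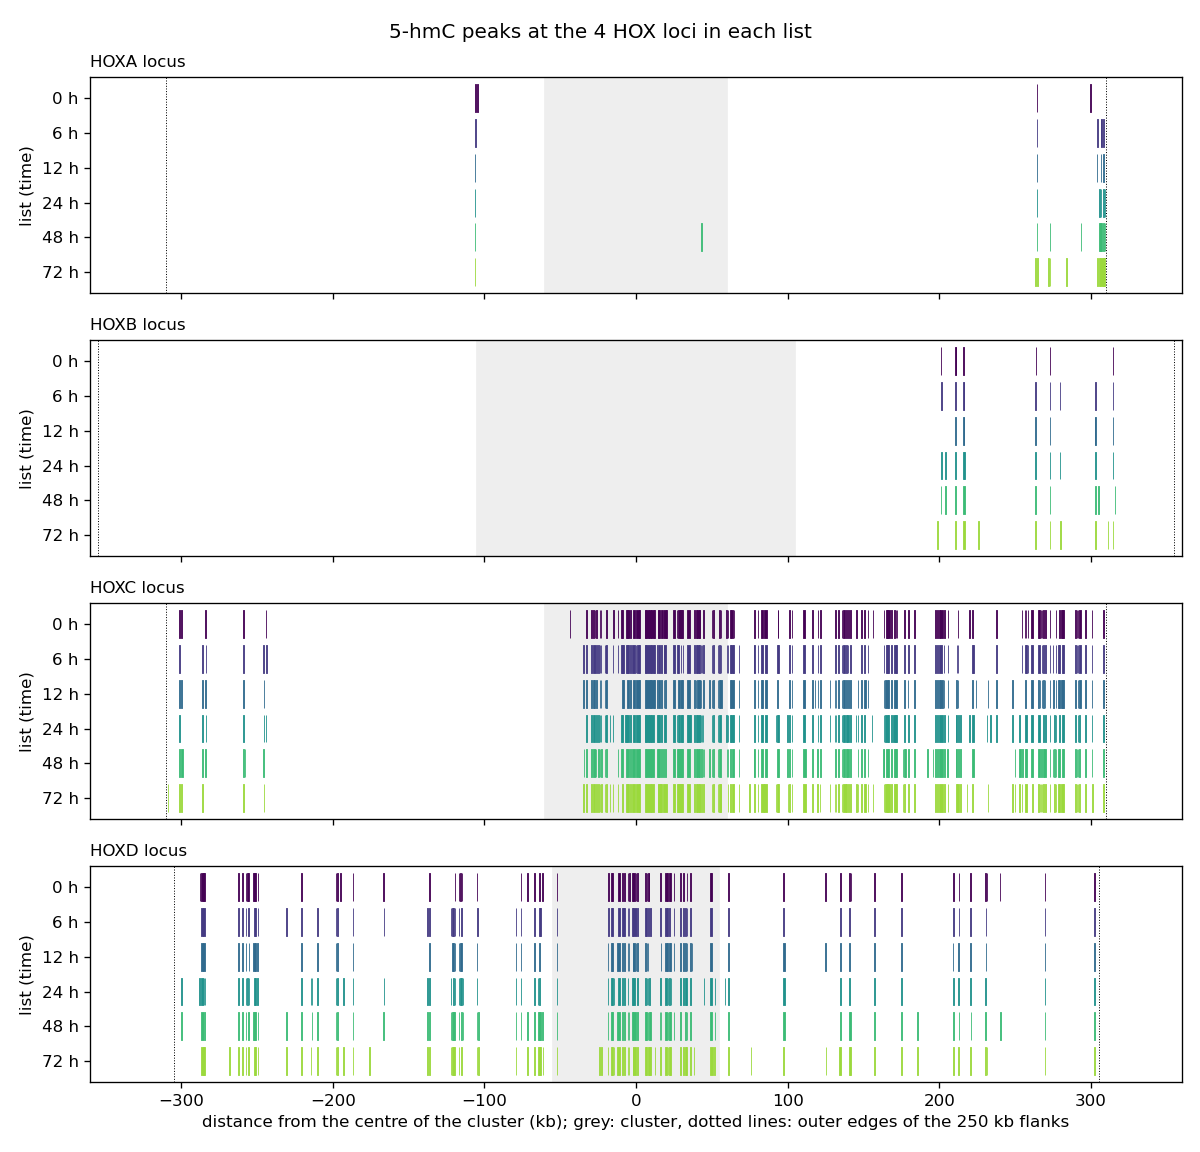
Peaks of the 6 lists at the 4 HOX loci, drawn to scale against the distance from the centre of the cluster in kb, with 1 row per list and the cluster in grey. HOXA shows a single peak in its cluster and HOXB none, whereas HOXC holds 48 to 55 and HOXD 29 to 34 peaks per list.

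The empty stretch reached well past the HOXB genes. No list had a peak in chr17:46238359-46903605, a stretch of 665 kb that holds the whole cluster and the whole lower flank, on the side of HOXB1 and SKAP1. Of 414390 stretches between neighbouring peak regions of the genome, 198 (0.0478%) were at least as long, unassembled sequence included. At HOXA, chr7:27085712-27233061 (147 kb) was free of peaks in every list, and 0.324% of stretches were at least as long. In the normoxia list the peaks nearest to the HOXA cluster ended at 27084125 and 27085711 below it and began at 27454217 above it. Windows with so few peaks were common when whole chromosomes were cut into windows, unassembled sequence included. Of windows of 120 kb 22.4%, and of windows of 210 kb 18.3%, held at most 1 peak region over the 6 lists combined. Windows as empty as the HOXA and HOXB clusters were thus not rare in this count. How many of them lie in unassembled sequence was not counted.

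The peak-rich clusters stood further from the usual window. Peaks covered 26.8%, 28.0%, 26.9%, 28.7%, 30.7% and 32.0% of the HOXC cluster. For HOXD the covered share was 15.7%, 16.3%, 15.3%, 15.3%, 17.3% and 18.8%. Over chromosomes 1 to 22 and X it was 4.83%, 5.17%, 5.07%, 5.43%, 5.88% and 6.32%. Among 25282 windows of 120 kb, unassembled sequence included, 1.89% were covered at least as much as HOXC at 0 h and 1.63% at 72 h. Among 27578 windows of 110 kb, 7.06% reached the HOXD value at 0 h and again at 72 h. HOXC exceeded HOXD in each of the 6 lists.

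Cluster and flanks were then set against each other within each list, where both share depth and peak threshold. The 500 kb of HOXC flanks held 78, 77, 77, 83, 86 and 88 peaks and were covered to 8.57%, 9.10%, 9.06%, 9.58%, 10.3% and 11.1% from 0 to 72 h. The HOXD flanks held 46, 42, 39, 51, 54 and 54 peaks and were covered to 3.78%, 4.07%, 3.97%, 4.45%, 4.84% and 5.29%. The HOXA flanks had 4, 6, 5, 6, 9 and 11 peaks and the HOXB flanks 7, 9, 8, 10, 9 and 10. So the HOXC and HOXD clusters were denser than their surroundings. At HOXA and HOXB both cluster and flanks were poor in peaks, and the lower flank of HOXB was as empty as its cluster. The 3 peaks that a count of 0 allows come to 2.5 per 100 kb in the HOXA cluster and 1.43 in the HOXB cluster, against 0.8 to 2.2 in the HOXA flanks and 1.4 to 2.0 in the HOXB flanks. A lower density in the cluster than in its flanks was therefore not detectable at HOXA, and at HOXB the flanks were only slightly above that limit in 5 of 6 lists.

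Covered share in the cluster minus that in the flanks was 19.2 percentage points at HOXC (SD 1.18 over 6 lists, higher in 6 of 6) and 12.1 points at HOXD (SD 0.930, higher in 6 of 6). At HOXA it was -0.510 points (SD 0.321) and at HOXB -0.753 points (SD 0.206). With no cluster peak in 5 lists of HOXA and 6 of HOXB, any flank peak fixes the sign there. These values are therefore given as a description. Their permutation tests are not read, though they count among the 13 comparisons of the adjustment below. Over the 4 loci pooled the difference was 5.59 points (SD 0.243, higher in 6 of 6). It sets the covered share of all cluster length against that of all flank length, and so mixes loci with opposite differences. The differences at HOXC, at HOXD and over the pooled loci each had an exact two-sided sign-flip permutation p of 0.03125, the smallest that 6 lists allow, and an adjusted p of 0.0339 (Benjamini-Hochberg over 13 comparisons). The lists share the same loci, so these p-values concern the libraries and not other loci. Peaks per 100 kb gave the same signs and the same p at HOXC and HOXD, with differences of 26.6 and 17.7.

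Peak width set the clusters apart less than number did. The median width in the HOXC cluster was 410.5, 397, 515, 438, 539 and 594 bp, and it exceeded that of the flanks in 4 of 6 lists (mean difference 42.3 bp, SD 56.8, exact sign-flip permutation p = 0.1875, adjusted p = 0.1875). In the HOXD cluster it was 514, 522, 467, 445, 501 and 481.5 bp, above the flanks in 6 of 6 lists (mean difference 93.5 bp, SD 45.1, exact permutation p = 0.03125, adjusted p = 0.0339). Peaks of at least 1000 bp were 14 of 81 cluster peaks (17.3%) at 0 h and 12 of 85 (14.1%) at 72 h. In the flanks they were 9 of 135 (6.67%) and 16 of 163 (9.82%), and in the genome 7.74% and 8.68%.

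**Figure D2:**
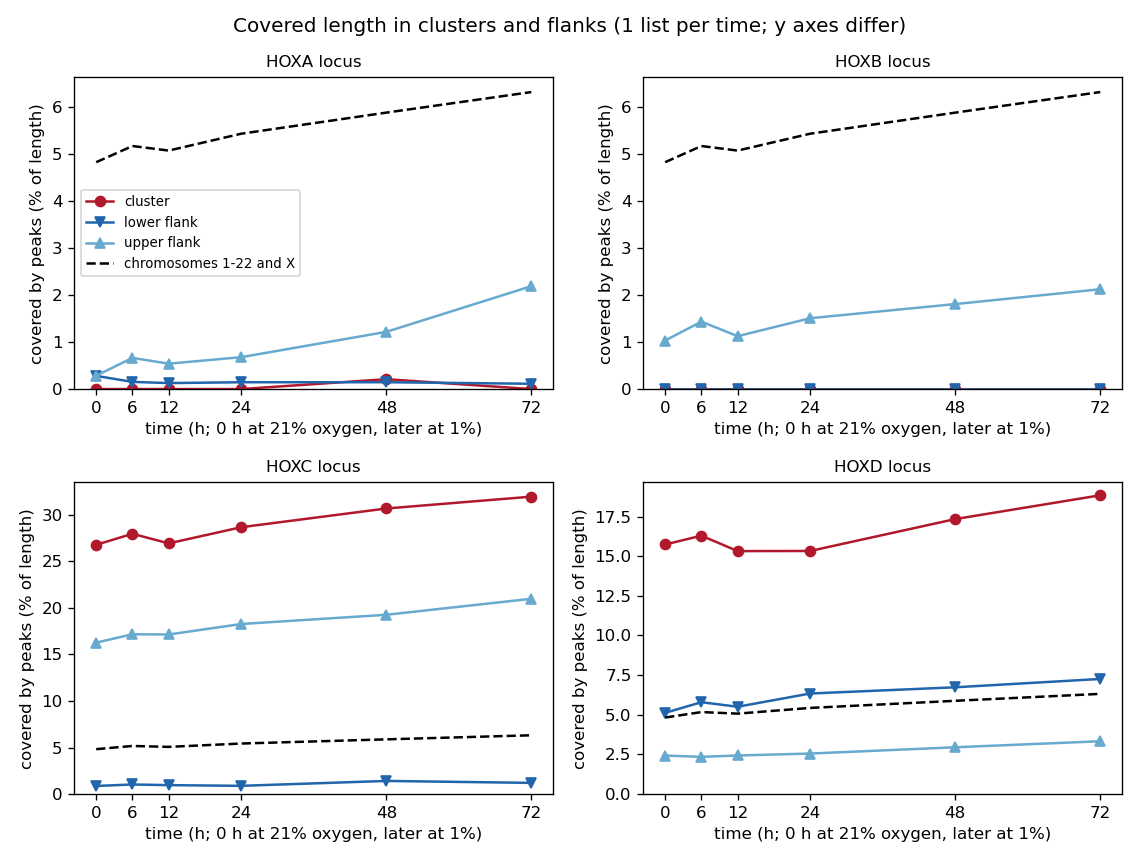
Share of length covered by peaks (%) against time (h) for the cluster and each flank of the 4 loci, 1 list per point, with the chromosomes 1 to 22 and X as a dashed line and a y axis of its own in each panel. The HOXC and HOXD clusters lie above the dashed line at every time, the HOXA and HOXB clusters at or near 0, where the points of the HOXB cluster and its lower flank coincide.

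The flanks of a locus were unlike each other. At HOXC the lower flank, towards CALCOCO1, held 5 to 7 peaks per list and was covered to between 0.870% and 1.41%. The upper flank, towards SMUG1 and CBX5, held 71 to 82 peaks and went from 16.3% to 21.0% covered between 0 and 72 h, so that the HOXC peaks formed 1 dense block running from inside the cluster through the upper flank. Below it chr12:54146322-54346394 (200 kb) was free of peaks in every list and reached 16.4 kb into the cluster on the HOXC13 side, up to a peak of 226 bp seen in normoxia alone. In the 5 hypoxia lists the free stretch ended between 54355266 and 54357212. At HOXD the lower flank, on the side of LNPK, was the denser, with 5.12% covered at 0 h and 7.26% at 72 h against 2.43% and 3.33% in the upper flank. At HOXB all flank peaks lay in the upper flank.

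Peaks were also uneven within the dense clusters. When each was cut into 3 parts of equal length, the lowest part of HOXC, on the HOXC13 side, was covered to 7.21%, 10.3%, 9.79%, 10.3%, 11.9% and 13.7% from 0 to 72 h. The middle part was covered to between 38.6% and 47.0% and the highest part, on the HOXC4 side, to between 32.4% and 35.9%. In HOXD the lowest part, on the HOXD13 side, was covered to between 1.38% and 3.87%, the middle part to between 25.5% and 31.2% and the highest part, on the HOXD1 side, to between 16.9% and 21.4%. Both clusters were thus poorest at the end that holds the paralogue 13 gene, and the ranges of the 3 parts did not overlap in either cluster. The longest stretch free of peaks inside HOXD, chr2:176953023-176980585 (27.6 kb), lay at that end, and 3.08% of the genome's stretches were at least as long.

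The widest region of the HOXC cluster was chr12:54396598-54399817, where peaks covered 2701, 2901, 2698, 2927, 2932 and 3119 bp. The lists of 0, 12 and 24 h split it into 2 peaks and the lists of 6, 48 and 72 h held 1. In HOXD the widest was chr2:177003106-177005122, with 1661, 1643, 1904, 1234, 1945 and 1921 bp covered, as 2 peaks at 0, 6 and 12 h and 1 at 24, 48 and 72 h. Both regions were present at every time, and in neither was each value above the one before.

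At 72 h the HOXC cluster had more covered length than at 0 h with about the same number of peaks, while the HOXD cluster and the flanks had more of both. The covered share at 72 h was 1.19 times that at 0 h in the HOXC cluster and 1.20 times in the HOXD cluster, against 1.29 and 1.40 times in their flanks and 1.31 times in the genome. Flanks of HOXA went from 0.283% to 1.15% (4.07-fold) and those of HOXB from 0.516% to 1.06% (2.06-fold), on 4 to 11 peaks per list. The HOXA gain lay in the upper flank (0.285% to 2.19%). Its lower flank went from 0.280% to 0.113% and from 2 peaks to 1. The number of peaks at 72 h was 0.981 times that at 0 h in the HOXC cluster and 1.17 times in the HOXD cluster, against 1.13 times in the HOXC flanks and 1.17 times in the HOXD flanks. In the genome the number was 1.24 times that at 0 h, above these values of HOXC and HOXD. Each of these is a difference between a pair of libraries, with no test. The genome rose in both measures, whereas the HOXC cluster rose in covered length only.

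Over the 4 loci pooled, the clusters held 81, 84, 77, 82, 81 and 85 peaks and 49.5, 51.5, 49.2, 51.3, 56.2 and 59.1 kb of covered length. Flanks held 135, 134, 129, 150, 158 and 163 peaks and 65.7, 71.5, 69.6, 76.0, 83.8 and 93.0 kb. Covered length in the flanks rose with hours (Pearson's r = 0.990, exact permutation p = 0.00278, adjusted p = 0.0167; Spearman's rho = 0.943 with permutation p = 0.0167, 0.0444 after adjustment), and r was 0.904 without 48 and 72 h, the times farthest from the median. Covered length in the clusters had r = 0.958 (exact permutation p = 0.0111, adjusted p = 0.0222) and rho = 0.714 (exact permutation p = 0.136, adjusted p = 0.181). Its r fell to 0.406 without 48 and 72 h, so the relation rests on those lists. For peak number r was 0.922 in the flanks (exact permutation p = 0.00833, adjusted p = 0.0222; rho = 0.771, p = 0.103, adjusted p = 0.181), and 0.711 without 48 and 72 h. In the clusters it was 0.446 (exact permutation p = 0.394, adjusted p = 0.394; rho = 0.377, p = 0.472, adjusted p = 0.472), and 0.940 without HOXC (adjusted permutation p = 0.0533). Without HOXC all cluster peaks but the 1 of HOXA at 48 h were those of HOXD. Adjustment was over 8 measures. Without any single list other than that of 12 h the adjusted permutation p of both covered lengths and of flank number was at or above 0.0667, on 5 lists, with r of 0.973 to 0.998 for covered length in the flanks and 0.891 to 0.980 in the clusters.

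The part of the HOX covered length that lay inside the clusters fell at each step, from 42.9% at 0 h through 41.9%, 41.4%, 40.3% and 40.1% to 38.8% at 72 h. Its Pearson's r with hours was -0.941 (exact permutation p = 0.00417, adjusted p = 0.0167), its Spearman's rho was -1 (permutation p = 0.00278, the smallest that 6 lists allow; after adjustment 0.0222), and r without 48 and 72 h was -0.985. Without any single list other than that of 12 h it missed the threshold on 5 lists, with r from -0.975 to -0.889. As a part of all covered length of the genome, the clusters had r = -0.808 (exact permutation p = 0.0583, adjusted p = 0.0778), and their rank correlation was rho = -0.943 (permutation p = 0.0167, after adjustment 0.0444). Median width had r = 0.847 in the clusters (exact permutation p = 0.0458, adjusted p = 0.0733; rho = 0.6, p = 0.242, adjusted p = 0.276) and 0.699 in the flanks (exact permutation p = 0.118, adjusted p = 0.135; rho = 0.714, p = 0.136, adjusted p = 0.181). Total covered length rose over the same lists, and the part of depth or peak threshold in these relations was not tested.

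To ask which sites were held throughout, peaks that overlapped between lists were joined into regions. Of 92 cluster regions 55 (59.8%, 95% Clopper-Pearson interval 49.0 to 69.9) were present in all 6 lists, against 93 of 191 flank regions (48.7%, 41.4 to 56.0) and 46.9% of all regions. HOXC had 33 of 53 and HOXD 22 of 38 cluster regions in all lists. Regions of 1 hypoxia list alone were 10 in the clusters (10.9%) and 26 in the flanks (13.6%), with 16% in the genome. Some regions were present from 0 h up to some list before 72 h and absent from every list after it. They were 2 in the clusters (2.17%) and 7 in the flanks (3.66%), with 3.7% in the genome. The intervals of clusters and flanks overlap, and the difference was not tested.

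In the clusters 4 regions were present in each of the 5 hypoxia lists but absent from that of normoxia (4.35%, 1.20 to 10.8), as were 10 of the flanks (5.24%, 2.54 to 9.42) and 3% of all regions. The widest, chr12:54432659-54433685 towards the HOXC4 end, was covered over 751, 420, 638, 817 and 935 bp from 6 to 72 h. The others were chr12:54369265-54369782 (509, 231, 327, 466 and 325 bp), chr12:54443749-54444241 (349, 268, 327, 422 and 446 bp) and, in HOXD, chr2:177037169-177037999 (387, 450, 396, 775 and 526 bp). In the flanks the widest was chr7:27496156-27497619 in the upper flank of HOXA, with 520, 340, 313, 851 and 1416 bp. A single cluster region was seen in normoxia alone, chr12:54346395-54346620 (226 bp, 1.09% of cluster regions), as were 3 flank regions (1.57%) and 1.84% of all regions. These shares were close to those of the genome, and read against that background they are no result about HOX loci.

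Peaks of the 0 h list were mostly found again at 72 h. In the clusters 76 of 81 (93.8%, 86.2 to 98.0) overlapped a 72 h peak by at least 1 bp, in the flanks 119 of 135 (88.1%, 81.5 to 93.1) and in the genome 89.8%. In the other direction 70 of 85 cluster peaks of the 72 h list (82.4%, 72.6 to 89.8) overlapped a 0 h peak, against 113 of 163 in the flanks (69.3%, 61.6 to 76.3) and 70.3% in the genome. Joined peaks were part of this: 7 of 85 cluster peaks at 72 h (8.24%, 3.38 to 16.2) spanned at least 2 peaks of the 0 h list, 5 of them in HOXC, while 7 of 163 flank peaks (4.29%, 1.74 to 8.65) and 3.81% of the genome's did. Splitting was rarer, with 2 of 81 cluster peaks (2.47%) and 1 of 135 flank peaks (0.741%) of the 0 h list spanning at least 2 peaks of the 72 h list, and 2.03% in the genome. By length, 0.699 of the bases covered at 0 or 72 h in the clusters were covered at both, 0.557 in the flanks and 0.607 in the genome.

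Widening of lasting peaks was looked at in regions with exactly 1 peak in each list. Of 40 such cluster regions 22 (55.0%, 38.5 to 70.7) were wider at 72 h than at 0 h, 13 of 21 in HOXC and 9 of 19 in HOXD. In the flanks 54 of 77 (70.1%, 58.6 to 80.0) were wider, and 71.2% in the genome. The cluster share was lower than both of these. Its interval overlapped that of the flanks and ended just under the genome's share, and the difference was not tested. In normoxia the median width of these peaks was 509 bp in the clusters and 421 bp in the flanks, and after 72 h of hypoxia it was 600.5 and 537 bp.

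**Figure D3:**
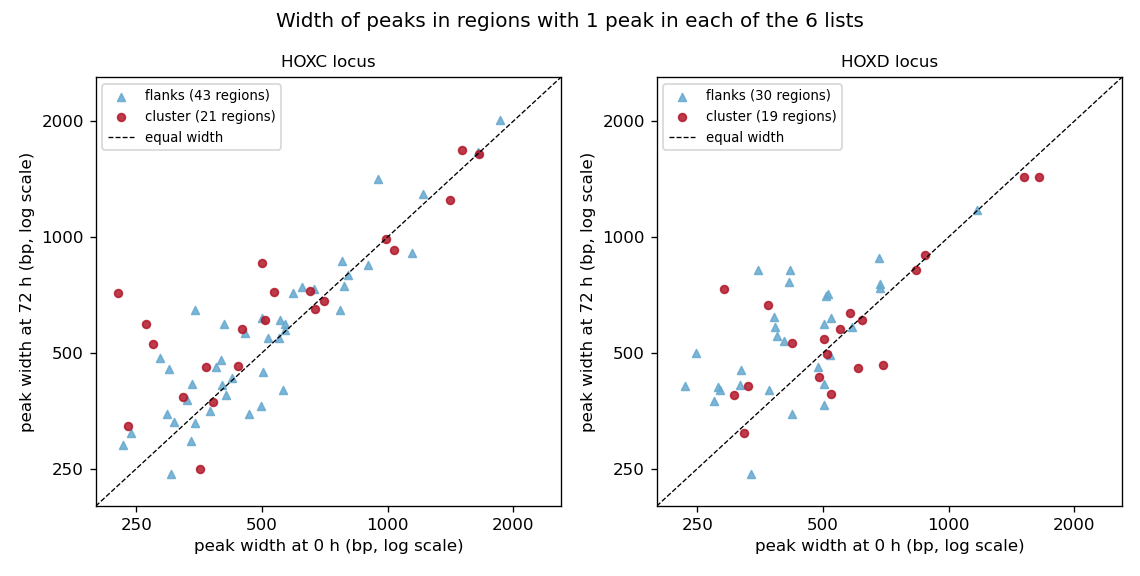
Peak width at 72 h against that at 0 h (bp, both axes on a log scale) for regions with 1 peak in each of the 6 lists at HOXC and HOXD, with clusters as circles, flanks as triangles and equal width as a dashed line. In HOXC 13 of 21 and in HOXD 9 of 19 cluster regions lie above the line, in the flanks 28 of 43 and 23 of 30.

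To see where along the loci the lists differed, covered length was compared in 10 kb bins. A bin was tested when its mean covered length over the lists was at least 500 bp. Because 5 of the 6 lists are of hypoxia, this filter lets in gains more readily than losses, here and in the genome. A tested bin was called when it differed from 0 h by at least 500 bp and by at least 1.5-fold. The fold was taken after division by the ratio of total covered lengths, with 100 bp added to both. Of 56 cluster bins 35 (62.5%) held no peak in any list, against 45.8% of bins in the genome, unassembled sequence included. These cluster bins were 21 of 21 in HOXB, 11 of 12 in HOXA, 1 of 12 in HOXC and 2 of 11 in HOXD. Of 18 tested cluster bins 2 were higher at 72 h and none was lower, and of 47 tested flank bins 7 were higher and none lower. In the genome 11.3% of tested bins were higher and 2.41% lower, so the count for the clusters is near the background. Earlier lists called fewer bins. At 6 h no cluster bin was called, and 4 flank bins were higher and 1 lower (genome 4.21% higher and 2.25% lower). At 12 h 1 cluster bin was higher and 1 lower, and 2 flank bins were higher (genome 3.83% and 2.31%). At 24 h 1 cluster bin was lower and 3 flank bins were higher (genome 5.68% and 1.75%), and at 48 h no cluster bin was called and 4 flank bins were higher (genome 9.16% and 2.24%).

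Both called cluster bins lay side by side at the sparse end of HOXC. The bin chr12:54360001-54370000 held 2156, 3502, 2809, 3540, 3988 and 4403 bp. Its neighbour chr12:54350001-54360000 held 500, 775, 1011, 731, 785 and 1115 bp. The densest bin, chr12:54390001-54400000, held 5346 bp in normoxia and 6452 bp after 72 h and was not called. No bin of the HOXD cluster was called at 72 h. In the flanks the called bin with the most covered length at 72 h was chr7:27490001-27500000 at the outer edge of HOXA. It had no covered base at 0 h and then 1120, 867, 1278, 1927 and 3509 bp, so the hypoxia lists alone brought it past the filter for testing. At 0 h a peak of 292 bp, chr7:27489558-27489849, ended just below this bin. On the LNPK side of HOXD, chr2:176880001-176890000 held 1285, 2513, 2296, 2092, 2466 and 2870 bp.

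**Figure D4:**
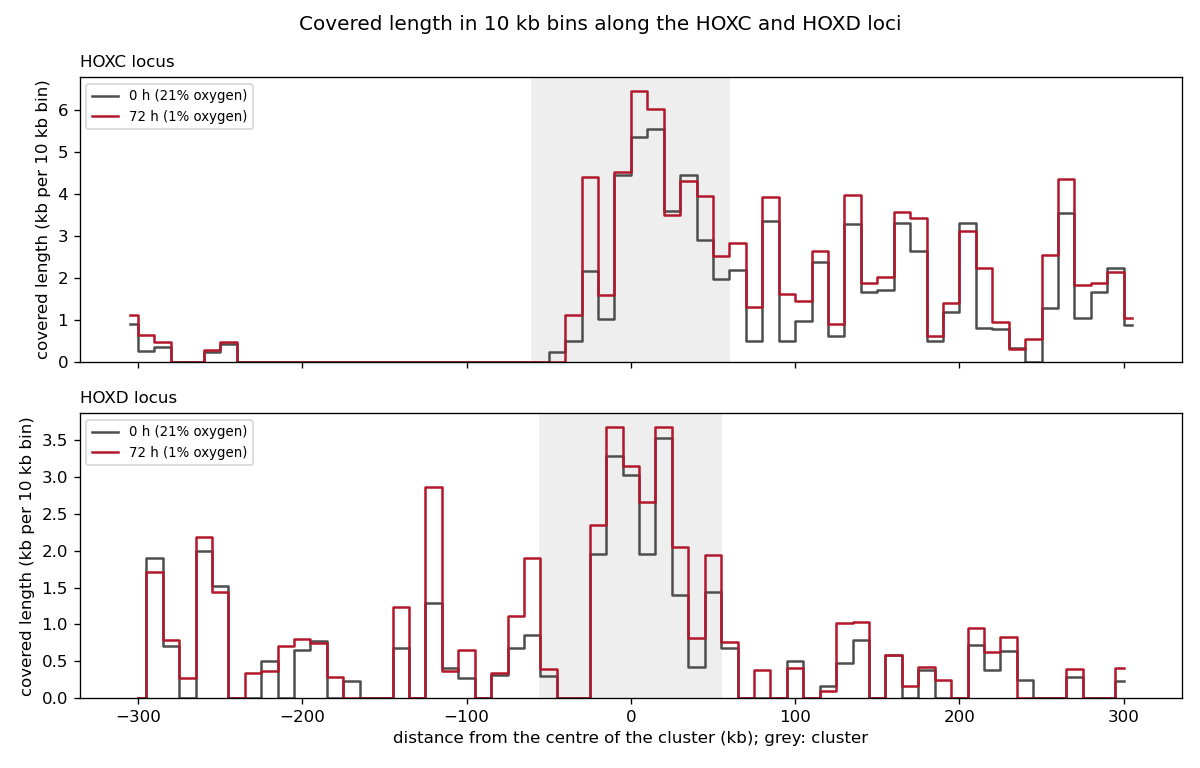
Covered length (kb per 10 kb bin) against the distance from the cluster centre (kb) at HOXC and HOXD for 0 h and 72 h, with the cluster in grey. The HOXC profile rises from 0 inside the lower edge of the cluster, reaches 5531 bp in normoxia and 6452 bp after 72 h in its highest bins and runs on through the upper flank, while the 2 cluster bins called at 72 h lie at the lower side of its highest bins.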

How the data were processed

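Genomic DNA of SK-N-BE(2) cells was sheared to 300 bp, and 5-hmC was given an azide-bearing glucose, coupled to biotin and captured on streptavidin, per the labels' protocols. The authors deposited 1 list per captured library with chromosome, start and end only. The submitters' processing notes name BWA 0.7.17, MACS2, HTSeq and, as build, hg19. Not given in the sources used here are the peak threshold and any use of the input as control. Of 7 samples the input was not used here. The narrowest peak was 226 to 242 bp in the 6 lists, so their smallest widths differed, and a deeper library can give more and wider peaks.

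Samples were grouped by labelled time and oxygen. Peaks were placed by midpoint, covered length is the sum of their widths, and overlap means at least 1 bp. Cluster minus flanks was tested by an exact two-sided sign-flip permutation over 64 patterns, and relations with hours by exact two-sided permutation over 720 orders, both at a threshold of 0.05. Shares carry 95% Clopper-Pearson intervals. Regions named were the widest of each cluster, those of all 5 hypoxia lists but not normoxia, those of normoxia alone, called 10 kb bins and the longest stretch without peaks, at most 5 per class, the widest first. The second called bin and the densest bin of HOXC were named after their values were seen. Windows, gene lists and measures were chosen with earlier results of these data known. RefSeq tables (GRCh38.p14) gave gene order and sequences alone. Alternatives were other widths, flanks, bins and folds, merged peaks, placing by any overlap with the window, equal list lengths and left-out lists or loci. The computations were tested on 315000 simulated peaks, and 21 of 21 quantities were recovered to within 0.5%. The tools were SciPy 1.17.1, NumPy 2.4.6, Matplotlib 3.10.9, pandas 2.3.3 and Python 3.11.15.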

Additional observations from a re-analysis of the deposited data

How the results depend on the processing

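Of 229 alternative values 167 kept their direction and their side of the threshold (or stayed near the value). Another 34 no longer passed the threshold, 6 newly passed it, 18 moved and 4 changed sign. The cause was not tested for any of these. The 167 overstate stability. Placing peaks by any overlap with the window left every value unchanged. Number, length and width in the clusters do not depend on flank length or on the empty HOXB cluster. The covered share of clusters minus flanks stayed at 2.23 to 10.2 points for the pooled loci in 10 alternatives, positive in each. At HOXA and HOXB empty clusters fix its sign, and its tests are not read there. It was -0.166 at HOXA with peaks of at least 500 bp. With flanks of 100 kb it was -0.166 at HOXA and -0.218 at HOXB. Pooled median width missed the threshold with flanks of 100 kb (51.9 bp) and without HOXD (56.6 bp), each with an exact permutation p of 0.0625. With peaks of at least 500 bp r was 0.921 for covered length in clusters and -0.821 for the share in clusters (both adjusted permutation p = 0.0694), and without HOXC the former was 0.884 (adjusted permutation p = 0.0528). Peak number in clusters turned to r = -0.806 with equal list lengths and -0.221 without HOXD. It was 0.940 without HOXC (adjusted permutation p = 0.0533), where nearly all cluster peaks were those of HOXD. Median width in clusters turned to -0.352 without HOXC. Newly past the threshold were median width with equal list lengths (r = 0.985 in clusters and 0.944 in flanks, both adjusted permutation p = 0.00741) and without HOXD (0.868 and 0.888, adjusted permutation p = 0.0254 and 0.0204), flank width without the 12 h list (0.896, adjusted permutation p = 0.04), and the clusters' share of all covered length without HOXD (-0.918, adjusted permutation p = 0.00667). With single lists left out (leave-one-out) r ran from -0.0310 (without 72 h) to 0.703 for cluster number, from 0.891 to 0.980 for cluster length, from 0.973 to 0.998 for flank length and from -0.975 to -0.889 for the share in clusters. Each of the last 3, and flank number, missed the threshold without 0, 6, 24, 48 or 72 h but not without 12 h, with adjusted permutation p from 0.04 to 0.133. By rank of time without normoxia r was 0.864, 0.938 and -0.979 for these 3 (adjusted permutation p = 0.107, 0.1 and 0.1).

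With peaks of at least 500 bp, 23 cluster and 26 flank regions were in all lists, 1 and 5 in hypoxia but not normoxia, and 0 cluster regions in normoxia alone. Bins then gave 1 higher and 2 lower in clusters and 2 lower in flanks. Merging over 300 bp left 1 cluster region in hypoxia but not normoxia, and equal list lengths gave 8 flank regions in normoxia alone. Bins of 5 kb gave 6 higher and 2 lower in clusters and 16 higher and 2 lower in flanks. Without division by totals 11 flank bins were higher, with 6 h as the reference 0 cluster bins, and at a fold of 2, 0 cluster and 2 flank bins. No paired analysis was possible because each time has 1 sample.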

Other observations

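Beyond the flanks the empty loci ended at different distances. Below the HOXB cluster the first 300 kb held no peak in any list, and the next 100 kb held 4 to 7 per list. Above it, 700 to 800 kb away, 36 to 42 peaks lay in each list. Below the HOXA cluster no list had a peak between 100 and 400 kb from its edge, and between 1400 and 1500 kb there were 31 to 40 per list. Above it the first 200 kb were empty in every list and the next 100 kb held 3, 6, 5, 6, 11 and 14 peaks from 0 to 72 h. Peaks thus lay on both sides of the peak-free stretches of HOXA and HOXB, but unevenly. Below HOXA the 100 kb from 400 to 500 kb held 1 to 3 peaks per list. Those from 1100 to 1200 kb held no peak in any list.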
